A study of Mus musculus with 8 samples.

Results

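Brain phagocytes of wild-type (WT) mice were compared with those of muMT mice, a strain without B cells, under CTLA-4 blockade and across all genes. The libraries were chosen by their labels alone: the 2 from WT mice given anti-CTLA-4 and the 2 from muMT mice given anti-CTLA-4, which are 4 of the 8 in the study. The other 4 came from the same hosts given isotype IgG, an antibody without that specificity, and serve here as the comparison. Every mouse carried an intracranial GL261 glioma that expressed mCherry and EGFP, and brains were taken on day 23. Live cells that were positive for both CD45.2 and mCherry were sorted, so each library holds CD45-positive cells that carried tumour-derived fluorescence. The WT mice were C57BL/6. The muMT mice lack B cells in the whole body, in tumour, lymph node and blood alike, so no group separates a loss of B cells in the brain from a loss elsewhere. Nothing in the labels ties the 2 libraries of each group to different animals, and the labels do not give the sex, age, antibody dose or schedule, and p-values therefore measure only the spread between these libraries, which may be technical.

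CTLA-4 is an inhibitory receptor of T cells that competes with CD28 for CD80 and CD86 on antigen-presenting cells, and antibodies against it release T cell responses. The muMT mouse carries a disrupted Ighm gene, which encodes the constant region of the IgM heavy chain; B cell development stops early and the animal makes almost no antibody. Tumour macrophages and microglia take up tumour material, respond to interferon-gamma from lymphocytes with inducible nitric oxide synthase, guanylate-binding proteins and T cell-attracting chemokines, and respond to interleukin-4 and interleukin-13 with chitinase-like proteins, arginase 1, the mannose receptor and the chemokines Ccl17 and Ccl24. Microglia, monocyte-derived macrophages and border-associated macrophages share most of these programmes to different degrees.

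Reads assigned to genes numbered 24784639 and 27014356 in the WT anti-CTLA-4 libraries and 31289104 and 30354167 in the muMT ones. Libraries of one group correlated at 0.992 or more in log2 CPM (read counts scaled to the library size) and libraries of different groups at 0.982 or less. The libraries of a group differed by more than counting error, with a chi-square per degree of freedom of 2.06 (WT) and 1.77 (muMT) under anti-CTLA-4 and of 4.87 (WT) and 7.73 (muMT) under isotype IgG, so no pair was a copy. A share of the uniquely mapped reads was assigned to no gene on the counted strand, and such reads need not lie outside genes. The share was 33.2% ± 0.205 (SD, n = 2) in the WT anti-CTLA-4 libraries. In the muMT anti-CTLA-4 libraries it was 18.6% ± 0.0636 (SD, n = 2). The isotype libraries showed the same order, with 29.0% ± 0.806 (SD, n = 2) in WT and 20.6% ± 0.255 (SD, n = 2) in muMT. Ptprc, which encodes CD45, was read at 1079 and 1066 CPM in WT and 995 and 986 CPM in muMT under anti-CTLA-4, and the macrophage growth factor receptor gene Csf1r at 1536 and 1519 against 1688 and 1666 CPM, so both hosts' libraries held the markers that the sort and the label call for.

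The strain label was checked first. Ighm had 0 reads in all 8 libraries, as did Ighd and Igkc in the 4 anti-CTLA-4 ones, so the targeted gene itself checks nothing. Other B-lineage transcripts were scarce, and Jchain followed the label, while the row of the kappa light chain locus did not and is given at the end. Jchain, which joins the chains of IgM and IgA, had 62 and 73 reads in WT and 0 and 2 in muMT, a ratio of 77.2 in depth-adjusted reads with a 95% counting interval of 21.0 to 644. Cd79a, part of the B cell receptor, had 5 reads in each host and gave no contrast.

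Under CTLA-4 blockade the hosts differed in a large share of the transcriptome. Of 16608 genes tested, 9312 (56.1%) passed an adjusted p of 0.05 in edgeR, 4551 (27.4%) of them higher and 4761 (28.7%) lower in WT than in muMT. Fold changes are given throughout as log2 of WT over muMT with the standard error (SE) of the fit, so a positive value is higher in WT. Among the called genes, 2210 (13.3% of those tested) also had a fitted change of at least 2-fold. Of these, 1525 (9.18%) were higher and 685 (4.12%) lower in WT. The test was against no change, so a 2-fold minimum was not itself tested. At a fitted 8-fold or more the balance turned, with 72 higher and 83 lower. The median absolute log2 fold change over all tested genes was 0.392. The scaling of the libraries sets the median of all genes near 0, here -0.01, and so fixes the reference for every direction given. In 13117 genes (79%) the 2 WT values lay wholly above or below the 2 muMT values. With so many genes called, a count of called members in a group of genes has to be read against 56.1%, and its direction against 27.4% and 28.7%.

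**Figure D1:**
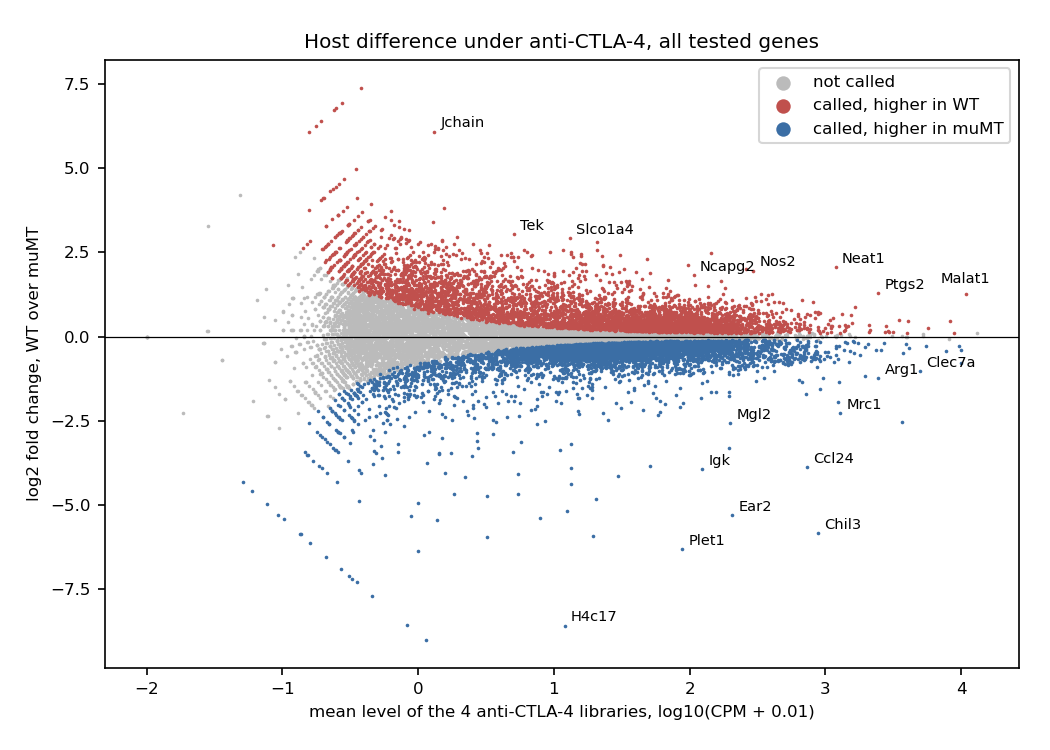
Each point is a tested gene under anti-CTLA-4, with the mean level of the 4 libraries, as log10(CPM + 0.01), on the horizontal axis and the log2 fold change of WT over muMT on the vertical axis; red and blue points passed an adjusted p of 0.05. Well-expressed genes that were higher in muMT lie far below 0, such as Chil3 at -5.86 and Ear2 at -5.31.

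Genes of alternative macrophage activation were far lower in WT, and one of them, Chil3, had the smallest p of all tested genes. Of the 28 listed genes of alternative activation and suppression, all 28 were tested and all were called: 22 lower and 6 higher in WT, with a median log2 fold change of -1.22. Chil3 encodes the chitinase-like protein Ym1, a product of macrophages exposed to interleukin-4. It was read at 29.6 and 30.5 CPM in the WT libraries and at 1733 and 1750.2 CPM in the muMT libraries. Both muMT values stood more than 50 times above both WT values, a log2 fold change of -5.86 ± 0.06 (adjusted p = 3.54e-35). Ccl24, or eotaxin-2, which attracts eosinophils, had 94.9 and 92.1 CPM in WT and 1375 and 1385 CPM in muMT. The groups did not overlap and differed by -3.88 ± 0.05 (adjusted p = 6.36e-32). The mannose receptor gene Mrc1 had 437 and 447 CPM in WT against 2145 and 2115 CPM in muMT, and Mgl2, which encodes the galactose-binding lectin CD301b, 55.9 and 59.0 against 341 and 341 CPM. Again the libraries of each host lay close together and far from the other host, with log2 fold changes of -2.27 ± 0.04 and -2.57 ± 0.05 (adjusted p = 1.91e-27 and 3.58e-26).

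Several genes of the same programme were close to silent in WT and clearly read in muMT. Ccl17, a ligand of the chemokine receptor CCR4 of T cells, was read at 1.04 and 1.40 CPM in WT and 25.1 and 25.9 CPM in muMT (-4.37 ± 0.16, adjusted p = 3.29e-20). Cd163, the scavenger receptor for haemoglobin bound to haptoglobin, gave 0.561 and 0.184 CPM against 14.9 and 16.0 CPM (-5.39 ± 0.22, adjusted p = 1.14e-18). Retnla, which encodes Fizz1, and Alox15, a lipoxygenase induced by interleukin-4, differed by -5.17 ± 0.18 and -4.84 ± 0.14. In each of them both muMT libraries lay above both WT libraries. Arg1, which turns arginine into ornithine, was read at much higher levels in both hosts, with 1440.1 and 1481 CPM in WT and 3469.9 and 3449 CPM in muMT. Its log2 fold change of -1.24 ± 0.04 (adjusted p = 5.59e-21) was close to the median of the list. Fn1, Mmp12, Spp1, Irf4 and Clec10a were also lower in WT, at -1.56, -1.36, -1.19, -1.54 and -1.42. The programme did not move as one block, because Il10, Stab1, Vegfa, Gpnmb, Trem2 and Tgfbi were higher in WT. Il10, an inhibitory cytokine gene, had 72.3 and 76.5 CPM in WT and 41.2 and 42.1 CPM in muMT, without overlap (0.84 ± 0.06, adjusted p = 6.15e-13).

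Other genes lower in WT were named by their rank. Ear2 encodes an eosinophil-associated ribonuclease, a family that alternatively activated macrophages also make, and was read at 9.69 and 10.6 CPM in WT and 398 and 405 CPM in muMT (-5.31 ± 0.06, adjusted p = 2.19e-32). Rnase2a of the same family differed by -5.94 ± 0.16. Their near-identical copies compete for uniquely mapped reads, so the values of single family members are uncertain. Plet1, a membrane-anchored surface protein gene, rose from 1.84 and 2.54 CPM in WT to 174 and 176 CPM in muMT (-6.31 ± 0.10, adjusted p = 4.43e-29). F7, the gene of coagulation factor VII, had 89.5 and 89.9 CPM in WT against 300.1 and 306 CPM (-1.76 ± 0.05). Scn3a, a sodium channel subunit gene, and Adam28, a metalloprotease gene, had log2 fold changes of -5.97 ± 0.37 and -5.44 ± 0.48. Adam28 rested on 3 reads in WT against 160 in muMT, a ratio of 46.6 with a counting interval of 15.7 to 228.

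Border-associated macrophages, which line the meninges and vessels, express Mrc1, Cd163, Stab1 and Clec10a as well, and 9 of their 13 tested markers were lower and 3 higher in WT (median -0.49). The summed level of that list was 2301 and 2311 CPM in WT and 3989 and 3979 CPM in muMT. Mrc1 alone gave 437 and 447 CPM of that sum in WT and 2145 and 2115 CPM in muMT. The gap between the sums was therefore that of Mrc1 and does not describe the other markers. Markers of these cells that are not alternative activation genes were lower too, with Lyve1 at -2.47 ± 0.62 from under 1 CPM, Pf4 at -0.46 ± 0.05 and F13a1 at -0.49 ± 0.05, and Folr2 did not pass the test (-0.38 ± 0.17). Siglec1 and Ms4a7 were higher in WT, at 0.32 ± 0.06 and 0.54 ± 0.05. In bulk libraries, fewer cells of a type and less RNA of a gene per cell cannot be told apart, and the part of border-associated macrophages in these differences was not tested.

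**Figure D2:**
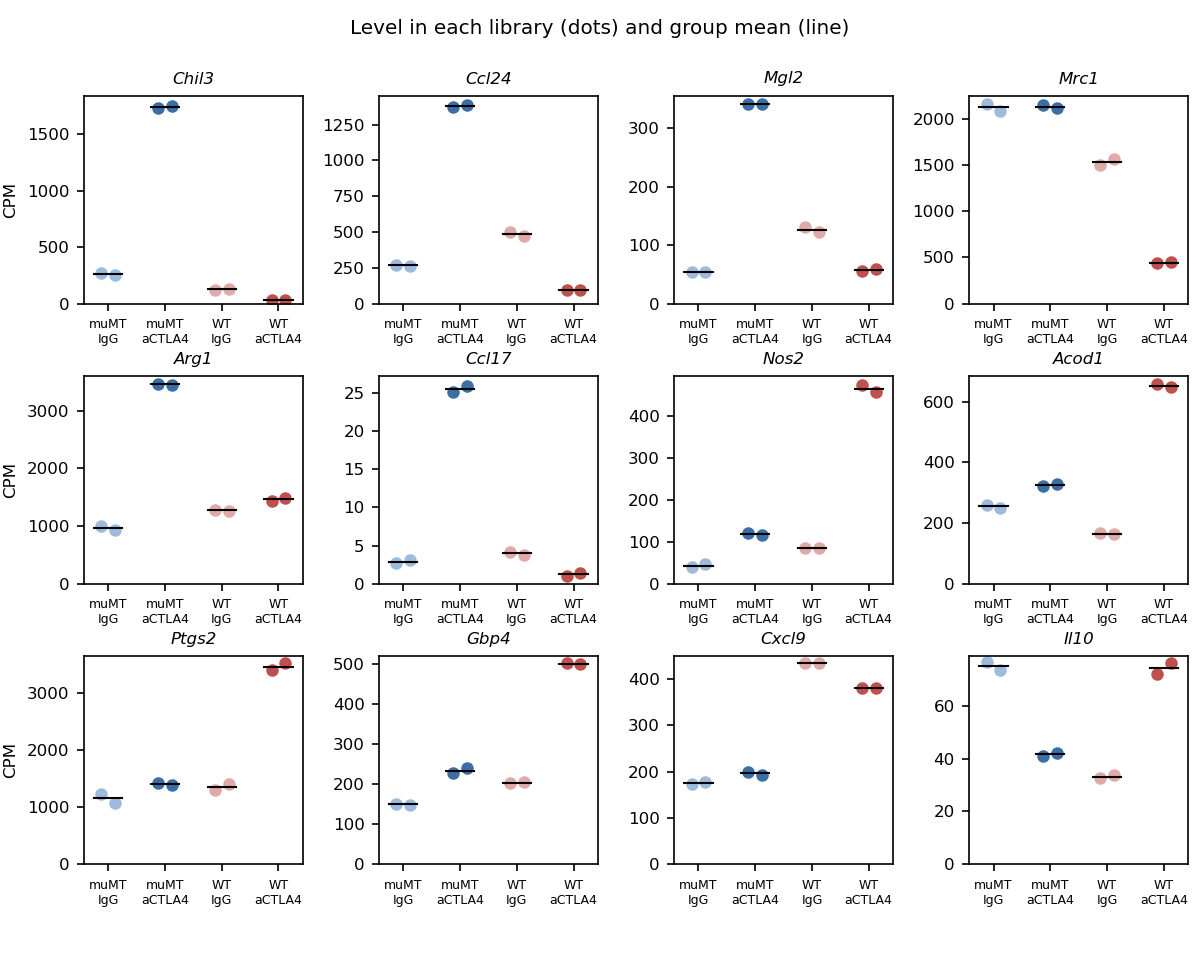
Level in CPM (vertical axis, from 0) of 12 genes in the 8 libraries; dots are libraries and lines are means of the 2 libraries of a group. Chil3, Ccl24, Mgl2, Arg1 and Ccl17 were highest in the 2 muMT anti-CTLA-4 libraries, Nos2, Acod1, Ptgs2 and Gbp4 in the 2 WT anti-CTLA-4 libraries.

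Arginine can also be used by inducible nitric oxide synthase, and that branch moved the other way. Nos2, its gene, was read at 474 and 457 CPM in WT and 122 and 117 CPM in muMT, and the libraries did not overlap. The log2 fold change was 1.96 ± 0.05 (adjusted p = 2.89e-23). Ass1, which regenerates arginine from citrulline, was higher in WT by 1.09 ± 0.05, and Gch1, which makes the cofactor of the synthase, by 0.44 ± 0.06. On the arginase side, Arg1, Srm for spermidine synthase, Odc1 for ornithine decarboxylase, and Oat were lower in WT (-1.24, -1.13, -0.27 and -0.38). Of the 14 tested genes of arginine and nitric oxide metabolism, 3 were higher and 8 lower in WT. Arg2, the mitochondrial arginase, did not pass the test, at 0.08 ± 0.06.

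Interferon-response genes were mostly higher in WT. Of 34 tested interferon-gamma response genes 28 were higher and 1 lower (median 0.54), and of 40 tested type I interferon-stimulated genes 31 were higher and 2 lower (median 0.42), against 27.4% and 28.7% of all genes. Gbp4 and Gbp5, guanylate-binding proteins that attack the vacuoles of intracellular pathogens, were higher in WT too. Gbp4 had 502 and 502 CPM in WT and 228 and 239.6 CPM in muMT. Gbp5 had 242 and 256 CPM in WT and 105 and 103 CPM in muMT. Every muMT value was below every WT value of the same gene, with log2 fold changes of 1.10 ± 0.04 and 1.25 ± 0.05. Cxcl9, a ligand of CXCR3 that draws in T cells, was at 380.1 and 380.5 CPM in WT and 200.2 and 192 CPM in muMT (0.95 ± 0.04, adjusted p = 2.19e-17). Its relatives Cxcl10 and Cxcl11 differed by 0.94 ± 0.05 and 1.58 ± 0.13. Acod1, which makes itaconate in activated macrophages, was close to 2-fold higher in WT, at 659 and 647 against 323 and 329.8 CPM (1.00 ± 0.04, adjusted p = 3.35e-18). The one interferon-gamma gene that was lower in WT was the serpin gene Serpina3g (-0.58 ± 0.05). Among the type I genes Parp14, Slfn5 and Ifi205 stood out by p, at 1.04 ± 0.04, 0.78 ± 0.05 and 0.97 ± 0.06, whereas Ifi27l2a and Oas1a were lower in WT, at -0.27 ± 0.05 and -0.15 ± 0.05. Ifng itself, the ligand's gene, was read at 4.21 and 3.86 CPM in WT and 3.69 and 2.93 CPM in muMT and did not pass the test (0.28 ± 0.20, adjusted p = 0.239).

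The promoters of these genes were read from RefSeq (GRCm38.p6, 250 bases before to 50 after each start; the counts themselves are on another build). The interferon-stimulated response element was searched on both strands as GAAANNGAA, where N is any base. It was held by 17 of 28 type I gene promoters with an entry (60.7%) and 13 of 23 interferon-gamma gene promoters (56.5%), against 9.09% of the 11807 promoters of tested genes. The windows around the match in Slfn5 (chr11:82951925-82952023, plus strand, motif starting 132 bases before the gene start) and Gbp5 (chr3:142496725-142496823, plus strand, 164 bases before) are shown because each gene is among the 4 called members of its list with the smallest p; the position is that of the nearest match before the start, and capitals mark every match in the window. A match describes the letters only.
Slfn5: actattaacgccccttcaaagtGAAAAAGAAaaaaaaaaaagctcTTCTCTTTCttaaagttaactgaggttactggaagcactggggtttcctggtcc
Gbp5: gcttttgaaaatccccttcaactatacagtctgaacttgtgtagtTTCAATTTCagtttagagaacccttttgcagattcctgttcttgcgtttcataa

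Inflammatory cytokine and NF-kB target genes leaned to WT, with 25 of 34 tested members higher and 6 lower (median 0.48). The NF-kB motif, searched as GGGANTTTC on both strands of the same promoter windows, was held by 7 of 26 members with an entry (26.9%) against 1.33% of tested genes' promoters. Ptgs2, the inducible cyclooxygenase of prostaglandin synthesis, was read at 3405 and 3526 CPM in WT and at 1429 and 1397 CPM in muMT. No muMT library came within a factor of 2 of a WT library (1.29 ± 0.05, adjusted p = 1.99e-18). Nfkbiz, an NF-kB cofactor, differed by 1.10 ± 0.04, the lectin receptor genes Clec4d and Clec4e by 1.05 ± 0.06 and 0.83 ± 0.05, and Tnip1, a brake on NF-kB, by 0.98 ± 0.06. Il1b and Tnf were higher in WT by less than these, with Il1b at 4694 and 4761 against 3388 and 3414 CPM (0.48 ± 0.04, adjusted p = 1.6e-11) and Tnf at 200.2 and 195 against 161 and 149 CPM (0.35 ± 0.05, adjusted p = 6.45e-07). Il12b, Il23a and Il27, which encode subunits of cytokines of the interleukin-12 family, were higher by 1.22 ± 0.10, 1.05 ± 0.15 and 1.19 ± 0.14, but Il12a was lower (-1.59 ± 0.31), with no more than 2.72 CPM in any library. Besides Il12a the lower members were Csf1, the macrophage growth factor, at -1.12 ± 0.05, Cxcl3 at -1.02 ± 0.07, Cxcl2 at -0.47 ± 0.04, Ccl3 at -0.39 ± 0.05 and Osm at -0.32 ± 0.04.

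Chemokine genes did not move together. Of 26 tested CC and CXC chemokines 10 were higher and 14 lower in WT. Lower were Ccl24 and Ccl17 (above), Ccl6 at 501 and 519.7 against 1947 and 1995 CPM (-1.95 ± 0.04, adjusted p = 1.3e-25), Ccl9 (-1.70 ± 0.04), Ccl8 (-0.96 ± 0.04), and the CCR2 ligands Ccl12 (-0.69 ± 0.06) and Ccl2 (-0.51 ± 0.05). Higher were the CXCR3 ligands Cxcl9, Cxcl10 and Cxcl11, Ccl5 at 64.5 and 63.8 against 27.3 and 25.8 CPM (1.27 ± 0.07, adjusted p = 7.55e-16), and Cxcl12, Cxcl13 and Cxcl14 (1.80 ± 0.16, 1.51 ± 0.20 and 1.22 ± 0.20).

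Several matrix-degrading proteases of macrophages were lower in WT. Of 21 tested proteases and inhibitors 12 were lower and 6 higher. Adamdec1, a metalloprotease of tissue macrophages, was read at 36.4 and 34.6 CPM in WT and 352 and 356 CPM in muMT, a gap of nearly 10-fold (-3.32 ± 0.06, adjusted p = 7.39e-28). Mmp13, Mmp12 and Mmp19 were all lower by a similar amount (-1.35 ± 0.04, -1.36 ± 0.05 and -1.31 ± 0.05), as was the inhibitor Timp1 (-1.29 ± 0.12), and Ctsk, a collagen-cutting cathepsin, by more (-1.99 ± 0.08). Timp3, an inhibitor gene, was higher in WT (1.13 ± 0.10).

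Antigen presentation did not follow one direction. Of 22 tested class I genes 12 were higher and 5 lower in WT (median 0.15), led by the class I transactivator Nlrc5 at 410.2 and 401 against 241 and 254 CPM (0.71 ± 0.05, adjusted p = 3.76e-14), H2-Q4 (0.65 ± 0.05), a member of a family of close copies, and the peptide transporter Tap1 (0.35 ± 0.04). The chaperones Calr, Canx and Pdia3 were lower (-0.73, -0.34 and -0.31). Of 17 class II genes 5 were higher and 7 lower. The peptide-loading genes H2-DMa, H2-DMb1 and H2-DMb2 and the thiol reductase Ifi30 were lower in WT (-0.78 ± 0.05, -0.60 ± 0.05, -1.52 ± 0.08 and -0.65 ± 0.04), while their counterweights H2-Oa and H2-Ob were higher (0.91 ± 0.12 and 0.97 ± 0.13). The class II chains themselves hardly moved: H2-Ab1 was at 4103 and 4179.9 CPM in WT and 3848 and 3785 CPM in muMT (0.12 ± 0.05, adjusted p = 0.0274), a call that was lost when any 1 of the 4 libraries was left out, and H2-Aa did not pass the test (-0.01 ± 0.04).

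Fc receptors bind IgG, of which muMT mice make almost none, although every mouse in the study was given an antibody. Of 12 tested receptors and adaptors 5 were higher and 4 lower in WT, near the shares of all genes. The lower ones were 3 receptors and a shared signalling chain. Fcgrt, the neonatal receptor that recycles IgG, was read at 69.0 and 68.1 CPM in WT and 144 and 144 CPM in muMT, without overlap (-1.07 ± 0.05, adjusted p = 7.51e-17). Activating Fcgr3 had 853 and 865 against 1445 and 1447 CPM (-0.75 ± 0.04), inhibitory Fcgr2b 735 and 733 against 1002 and 1004 CPM (-0.45 ± 0.04), and the signalling chain Fcer1g differed by -0.36 ± 0.05. The high-affinity receptor gene Fcgr1 was slightly higher in WT (0.14 ± 0.05, adjusted p = 0.0107) and lost that call when either WT library or the first muMT library was left out, and Fcgr4 did not pass the test (-0.09 ± 0.04, adjusted p = 0.0832). Trim21, the cytosolic antibody receptor, and the kinase gene Syk were higher (0.59 ± 0.08 and 0.17 ± 0.04).

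Complement genes leaned to WT, with 10 of 18 tested members higher and 4 lower. C3, the central component, was at 1651 and 1606 CPM in WT and 1031 and 1029.5 CPM in muMT (0.66 ± 0.04, adjusted p = 3.63e-14), and C4b and C2 were higher too (0.70 ± 0.05 and 1.23 ± 0.09). The subunit genes of the integrin receptors for C3 fragments split, with Itgam higher (0.77 ± 0.04) and Itgax lower (-0.59 ± 0.04). The C1q chain genes C1qb and C1qc were lower, C1qb by a log2 of -0.17 ± 0.04 and C1qc by -0.22 ± 0.04, and C1qa did not pass the test (0.03 ± 0.05). Scavenger and efferocytosis receptors, which take up debris and dying cells, were near balance, with 9 of 25 higher and 11 lower. Clec7a, the beta-glucan receptor Dectin-1, was read at 3244 and 3339 CPM in WT and 6635 and 6696 CPM in muMT (-1.02 ± 0.05, adjusted p = 1e-17). Cd36, Mfge8 and Scarb1 were lower in WT (-0.91 ± 0.05, -1.24 ± 0.09 and -0.73 ± 0.07), and Stab1, Itgav and Lrp1 higher (0.82 ± 0.05, 0.59 ± 0.05 and 0.32 ± 0.05).

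Ligands of the B7 family and other checkpoint genes, which control T cells, also split. Of 16 tested members 7 were higher and 4 lower in WT. Cd80 and Cd86, which CTLA-4 binds, differed little: Cd86 by 0.24 ± 0.04 and Cd80, which did not pass the test, by 0.04 ± 0.05. The 2 ligands of PD-1 went apart, with Cd274 (PD-L1) at 761 and 760.0 CPM in WT and 503 and 499.6 CPM in muMT (0.60 ± 0.04, adjusted p = 2.52e-13) and Pdcd1lg2 (PD-L2) at 144 and 141 against 240.3 and 246 CPM (-0.77 ± 0.05, adjusted p = 2.33e-14). In each gene the hosts' libraries did not overlap. Tnfsf9, the 4-1BB ligand, and Cd40 were higher in WT (1.26 ± 0.09 and 0.65 ± 0.06).

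Genes of growth and biosynthesis were lower in WT almost throughout. All 41 tested cytoplasmic ribosomal protein genes were lower in WT (median -0.67), with Rpsa at 586 and 617 against 1126 and 1123 CPM (-0.90 ± 0.04, adjusted p = 7.12e-17). Of 40 tested nuclear-encoded genes of oxidative phosphorylation, 39 were lower and none higher (median -0.61), among them Atp5f1b, the catalytic subunit of ATP synthase, at 586 and 592 against 973 and 973 CPM (-0.72 ± 0.04, adjusted p = 2.91e-15). Ndufa2 was the exception that missed the test (-0.17 ± 0.08). Cholesterol synthesis and uptake genes were lower in 22 of 23 and higher in none (median -0.69). Cyp51, an enzyme of the late pathway, was at 38.6 and 41.3 CPM in WT against 86.01 and 91.4 CPM in muMT. Sqle, which makes squalene epoxide, was at 7.53 and 8.16 against 20.9 and 18.99 CPM, and neither gene's groups overlapped. Their log2 fold changes were -1.15 ± 0.06 and -1.34 ± 0.10, and that of Fdps, which makes farnesyl pyrophosphate, was -1.19 ± 0.08. In the unfolded protein and heat shock list 24 of 31 were lower and 5 higher, with the endoplasmic reticulum genes Pdia4, Sdf2l1 and Manf at -1.23 ± 0.05, -1.14 ± 0.05 and -0.99 ± 0.05. The 5 higher ones included the inducible cytosolic chaperones Hspa1a and Hspa1b (0.38 ± 0.05 and 0.50 ± 0.05).

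Proliferation genes were lower in WT as well. Of 42 tested replication and mitosis genes 37 were lower and 1 higher (median -0.66), and of 42 replication-dependent histone genes 39 were lower and none higher (median -0.84). Mcm4, a subunit of the replicative helicase, was at 56.1 and 59.6 CPM in WT and 96.6 and 98.8 CPM in muMT, with both muMT libraries above both WT libraries (-0.76 ± 0.06, adjusted p = 1.1e-12). Mcm2 and Mcm7 of the same helicase differed by -0.84 ± 0.07 and -0.83 ± 0.06. The gene higher in WT was Mki67, the proliferation antigen, at 0.19 ± 0.05 (adjusted p = 0.00109), against the direction of the list. H4c3 had 64.5 and 62.1 CPM in WT and 136 and 142 CPM in muMT (-1.14 ± 0.05, adjusted p = 5.63e-17). Histone genes have near-identical copies, and their transcripts lack poly(A) tails, which these total RNA libraries do not need for capture. The CCAAT box, searched on both strands, was held by 32 of 38 histone promoters (84.2%) and 26 of 33 replication gene promoters (78.8%), against 42.5% of tested genes' promoters. The sterol response element, searched as TCACNCCAC on both strands, was held by 1 of 16 cholesterol gene promoters (6.25%, against 1.42%), that of Hmgcs1 (-0.57 ± 0.05). Windows of H4c3 (GRCm38.p6 chr13:23698535-23698629, minus strand, match 126 bases before the start) and Hmgcs1 (chr13:119690169-119690267, plus strand, 137 bases before), from RefSeq, are shown with every match in capitals, H4c3 as the member of its list with the smallest p and Hmgcs1 as the cholesterol gene that held the element. Positions are those of the nearest match before the start.
H4c3: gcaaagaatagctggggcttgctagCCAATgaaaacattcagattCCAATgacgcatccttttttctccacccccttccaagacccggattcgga
Hmgcs1: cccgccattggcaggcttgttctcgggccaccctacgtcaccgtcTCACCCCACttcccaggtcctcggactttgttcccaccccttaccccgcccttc

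**Figure D3:**
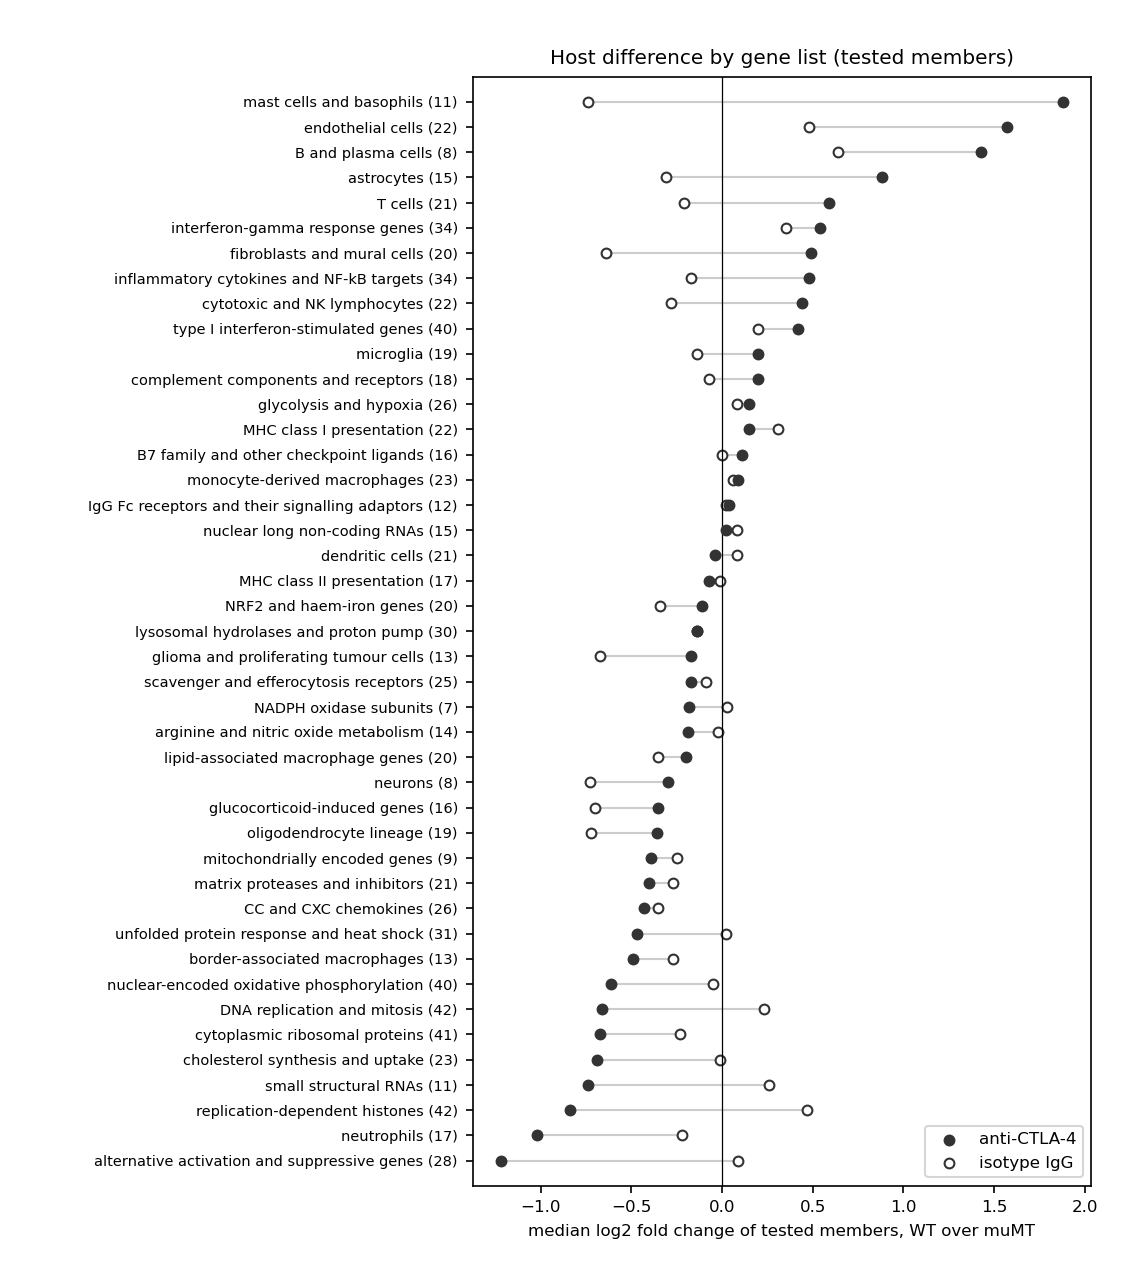
Median log2 fold change of WT over muMT (horizontal axis) of the tested members of each gene list with at least 5 of them tested, with the number tested in brackets; filled circles are anti-CTLA-4 and open circles isotype IgG. Under anti-CTLA-4 the medians run from -1.22 for alternative activation to 1.88 for mast cells and basophils.

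The length of a gene moved with the difference. The 13278 tested protein-coding genes were put in order of genomic span and cut into 5 bins of equal size. Among the shortest bin, spanning up to 8.21 kb, 13.6% were higher and 49.9% lower in WT, with a median of -0.29. In the longest bin, from 70.6 kb, 49.4% were higher and 14.3% lower, with a median of 0.27. Spearman's rho of span and log2 fold change across genes, which are not independent replicates, was 0.32 under anti-CTLA-4 and 0.15 under isotype IgG. Ribosomal protein, oxidative phosphorylation and histone genes are short, with 38 of 41, 18 of 35 and 40 of 42 in the shortest bin. Taken against the median of its own bin, each list was still lower in WT, with medians of -0.38, -0.36 and -0.57. The same reference gave -0.49 for replication, -0.53 for cholesterol and -0.99 for alternative activation genes, and 0.60, 0.69 and 0.66 for type I interferon, interferon-gamma and NF-kB genes. Among long non-coding RNAs, Neat1, the scaffold of paraspeckles, and Malat1 were among the genes higher in WT with the smallest p. Neat1 had 1954 and 1889 CPM in WT and 455 and 472 CPM in muMT (2.05 ± 0.04, adjusted p = 3.67e-26). Malat1 differed by 1.27 ± 0.04. They did not stand for their list, since of 15 tested nuclear long non-coding RNAs 4 were higher and 5 lower in WT (median 0.02). Of 1560 tested lncRNA genes 382 (24.5%) were higher and 162 (10.4%) lower in WT. The share of reads assigned to no gene, given above, was also higher in WT, and its part in the differences by gene span was not tested.

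**Figure D4:**
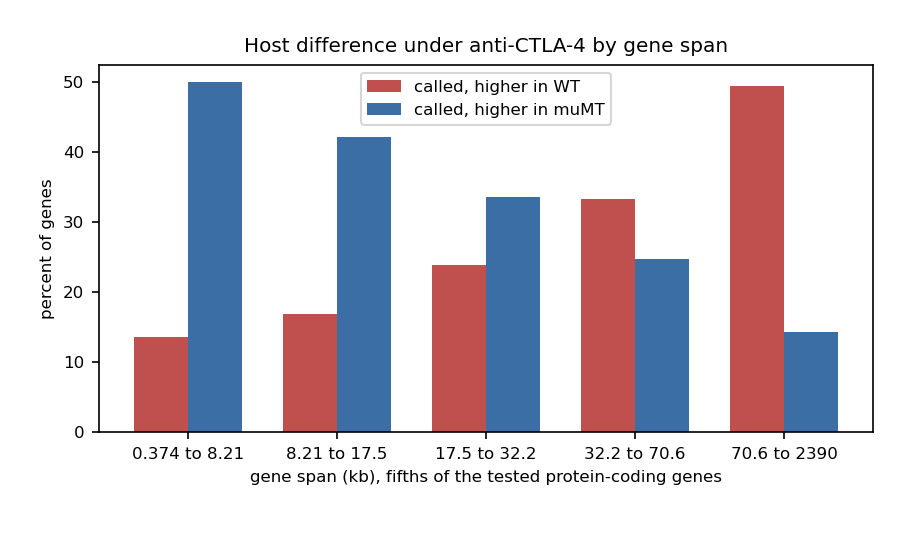
Percent of tested protein-coding genes called higher (red) or lower (blue) in WT than in muMT under anti-CTLA-4 (vertical axis, from 0), by 5 bins of genomic span in kb (horizontal axis). The share called higher in WT rises from 13.6% to 49.4% and the share called lower falls from 49.9% to 14.3%.

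Other genes that led the ranking toward WT had varied functions. Jag1, a Notch ligand, was at 258 and 256 CPM in WT and 80.7 and 84.1 CPM in muMT, about 3-fold apart with no overlap (1.64 ± 0.05, adjusted p = 8.65e-22). Rapgef2, an activator of the GTPase Rap1, and Dst, a cytoskeletal linker, had log2 fold changes of 1.27 ± 0.04 and 1.25 ± 0.05. Cpd, carboxypeptidase D, Dusp2, a phosphatase that turns off MAP kinases, and Nfat5, the osmotic stress factor, differed by 1.24 ± 0.04, 1.53 ± 0.06 and 1.46 ± 0.06. Ly6i, of the Ly6 family found on monocytes, was at 206 and 199.98 against 69.8 and 72.3 CPM (1.51 ± 0.05, adjusted p = 1.51e-20); it too has close copies.

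Summed markers of microglia and of recruited macrophages lay close in the 2 hosts. Of 19 tested microglial markers 10 were higher and 2 lower in WT (median 0.20), with a summed level of 4606 and 4650 CPM in WT and 4580 and 4518 CPM in muMT. Cx3cr1, the fractalkine receptor, was at 307 and 305 CPM in WT and 184 and 187 CPM in muMT (0.72 ± 0.04, adjusted p = 1.24e-14), and Sall1, a transcription factor of microglial identity, differed by 0.88 ± 0.10. Tmem119 was higher in WT by less (0.36 ± 0.06), and P2ry12 and Siglech did not pass the test (-0.06 ± 0.06 and -0.04 ± 0.07). Of 23 markers of monocyte-derived macrophages 12 were higher and 9 lower, summing to 21920 and 22150 CPM in WT and 23740 and 23610 CPM in muMT. Ly6c2 and Plac8, monocyte genes, were higher in WT (0.76 ± 0.06 and 0.87 ± 0.05), while Ccr2, which brings monocytes out of the marrow, was lower (-0.71 ± 0.06).

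Neutrophil genes were lower in WT, in 12 of 17 tested markers with 2 higher (median -1.02). Cxcr2, the neutrophil chemokine receptor, was at 0.320 and 0.257 CPM in WT and 3.10 and 3.27 CPM in muMT (-3.45 ± 0.35). S100a9, a calprotectin subunit, was at 1.00 and 1.87 against 8.11 and 7.11 CPM, and Mmp9, a gelatinase that macrophages also make, at 0.641 and 0.367 against 4.91 and 5.17 CPM (-2.39 ± 0.19 and -3.33 ± 0.24). Csf3r was higher in WT (0.53 ± 0.06), and Ly6g, the defining marker, had 1 read in the 4 libraries. These levels are low in both hosts.

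Mast cell genes, also at low levels, were higher in WT in 10 of 11 tested markers, with none lower (median 1.88). Their summed level was 59.3 and 59.8 CPM in WT and 27.1 and 29.4 CPM in muMT. Mcpt2, a mast cell protease gene, was at 8.77 and 7.90 CPM in WT and 1.62 and 1.87 CPM in muMT (2.25 ± 0.16, adjusted p = 7.48e-13). Kit, the stem cell factor receptor, and Mcpt4, a protease of connective tissue mast cells, differed by 1.51 ± 0.14 and 2.83 ± 0.32. Hdc, which makes histamine and is also made by myeloid cells, missed the test (0.11 ± 0.09).

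Lymphocyte transcripts were read in both hosts. In each lymphocyte list more members were called higher than lower in WT, some were called lower and others were not called. Of 21 tested T cell markers 11 were higher and 2 lower (median 0.59), and the list summed to 207 and 208 CPM in WT against 153 and 150 CPM in muMT. Il7r, the interleukin-7 receptor, held most of that sum, with 138 and 138 CPM in WT and 106 and 101 CPM in muMT (0.42 ± 0.06). Cd4, which some macrophages express too, was at 9.09 and 8.52 CPM in WT and 2.87 and 3.03 CPM in muMT (1.58 ± 0.15, adjusted p = 2.67e-10). The genes of the CD8 chains were the 2 that were lower in WT, with Cd8a at 2.28 and 2.90 against 3.10 and 4.87 CPM (-0.61 ± 0.22) and Cd8b1 at -0.92 ± 0.33. The T cell receptor constant genes Trac, Trbc1 and Trbc2 had 0 reads. Ctla4, the target of the antibody, was at 6.13 and 7.61 CPM in WT and 4.82 and 3.91 CPM in muMT (0.66 ± 0.15, adjusted p = 0.00045). Of 22 cytotoxic and NK cell genes 9 were higher and 1 lower; Prf1, for perforin, was higher (0.95 ± 0.17), Gzmb did not pass the test (-0.22 ± 0.11), and Klrb1c, for the receptor NK1.1, was lower, at 2.76 and 3.09 against 12.4 and 12.05 CPM (-2.06 ± 0.15). Among 8 tested B lineage genes 4 were higher, among them Jchain, Ms4a1 and Ebf1. Ebf1, at 2.43 ± 0.27, is also a gene of vessel-associated and stromal cells. Bank1 and Cd22 were lower (-0.38 ± 0.13 and -0.20 ± 0.06). The summed level of the 8 tested B lineage genes was 75.8 and 73.3 CPM in WT and 78.9 and 78.1 CPM in muMT.

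Endothelial genes were higher in WT in 20 of 22 tested markers, with 1 lower (median 1.57), although the sort selected CD45-positive cells. Slco1a4, a transporter of brain capillaries, was at 24.1 and 22.6 CPM in WT and 2.74 and 3.37 CPM in muMT. The WT libraries stood more than 6-fold above the muMT ones (2.93 ± 0.13, adjusted p = 3.23e-18). Ptprb, a phosphatase of vessel walls, was at 35.4 and 37.4 CPM in WT against 4.52 and 5.85 CPM in muMT (2.81 ± 0.11). Tek, the angiopoietin receptor, was at 9.33 and 8.85 against 1.25 and 0.953 CPM (3.03 ± 0.21). Vwf, Cdh5 and Cldn5, for von Willebrand factor, the vascular cadherin and the tight-junction claudin, were also higher (1.65 ± 0.08, 1.88 ± 0.14 and 1.48 ± 0.13). She, Selp and Btnl6, the further genes with the largest fold among those over 1 CPM, differed by 2.76 ± 0.31, 2.72 ± 0.30 and 2.88 ± 0.37; Selp encodes the P-selectin of endothelium and platelets. Pecam1, which leukocytes carry too, was lower in WT (-0.49 ± 0.05). The list summed to 1346 and 1315 CPM in WT and 855 and 860 CPM in muMT, and Ly6a, made by leukocytes as well, held a large part of it, with 512 and 489.8 CPM in WT and 253 and 258 CPM in muMT. Of 20 fibroblast and mural cell genes 11 were higher and 3 lower, with Mgp, Dcn and Col4a2 at 1.65 ± 0.11, 1.17 ± 0.10 and 1.04 ± 0.08, and Postn lower at -2.36 ± 0.17. Of 19 oligodendrocyte lineage genes 3 were higher and 8 lower; Mbp and Mal, of myelin, were higher (0.48 ± 0.07 and 1.89 ± 0.27) and Olig1 and Olig2, transcription factors of the lineage, lower (-1.42 ± 0.22 and -1.38 ± 0.23). Jag1 and the basement membrane collagen Col4a1, which vessels also express, moved with the endothelial list under anti-CTLA-4. Under isotype IgG they did not, with Jag1 at 0.01 and Col4a1 at -0.67 beside a list median of 0.48. The part of the endothelial list in their differences was not tested.

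The same hosts under isotype IgG differed in 6504 of 16608 genes (39.2%), 3312 (19.9%) higher and 3192 (19.2%) lower in WT. The host difference itself differed between the antibodies in 6194 genes (37.3%; 17.5% positive and 19.8% negative), by a test of the difference of differences on the same fit. Of the genes higher in WT under anti-CTLA-4, 1863 were also higher under isotype IgG and 425 were lower. Of those lower in WT, 1648 were also lower under isotype IgG and 601 were higher. A further 2263 were higher and 2512 lower in WT under anti-CTLA-4 and not called under isotype IgG. The difference between antibodies was itself called for 1284 and 1617 of these, so the others cannot be said to be particular to the blockade.

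**Figure D5:**
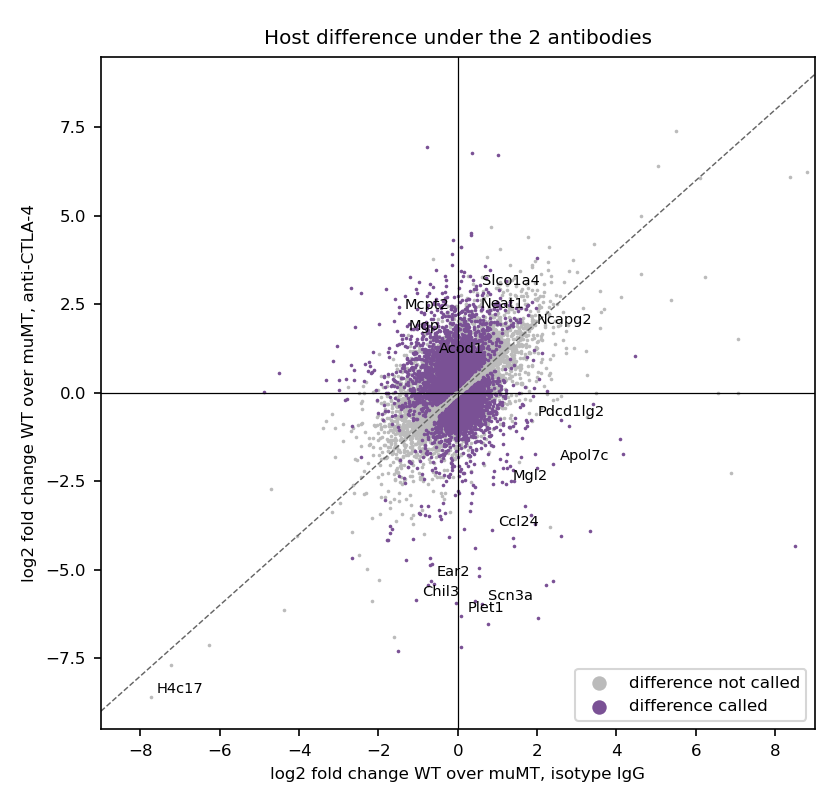
Each point is a tested gene, with its log2 fold change of WT over muMT under isotype IgG on the horizontal axis and under anti-CTLA-4 on the vertical axis; purple points passed the test of the difference, the dashed line marks equal values, and 2 genes lie beyond the axes. Ccl24, Mgl2 and Apol7c lie at the lower right, higher in WT under isotype IgG and lower under anti-CTLA-4, and H4c17 lies near the dashed line.

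The alternative activation genes were among those whose host difference changed with the antibody. Their median was 0.09 under isotype IgG, and the difference between antibodies was called for 26 of 28 members, 21 of them toward lower values in WT. Ccl24 was at 502 and 469 CPM in WT and 270.0 and 263 CPM in muMT under isotype IgG, the reverse order of anti-CTLA-4 (0.86 against -3.88, difference -4.75 ± 0.07, adjusted p = 2.06e-30). Mgl2 behaved alike, with 132 and 122 CPM in WT and 54.6 and 53.7 CPM in muMT (1.23 against -2.57). Arg1 and F7 also changed sign, from 0.40 to -1.24 and from 0.25 to -1.76, as did Apol7c, of the apolipoprotein L family, from 2.41 to -2.02, and Dip2c, from 0.21 to -1.97. Chil3 was lower in WT under both antibodies, by -1.06 with isotype IgG, and the gap widened under anti-CTLA-4 by -4.79 ± 0.07 (adjusted p = 4.1e-30). Plet1 did not differ between hosts beyond the threshold under isotype IgG, at 9.23 and 10.7 against 8.72 and 10.1 CPM (0.08, adjusted p = 0.557). Pdcd1lg2 went from 1.85 to -0.77, a difference of -2.62 ± 0.07 (adjusted p = 1.83e-22).

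Genes with the opposite switch were lower in WT under isotype IgG and higher under anti-CTLA-4. Acod1 was at 167 and 163 CPM in WT and 259 and 251 CPM in muMT under isotype IgG, and its fold change went from -0.63 to 1.00 (difference 1.63 ± 0.06, adjusted p = 5.32e-19). Nfkbiz and Clec4d, of the NF-kB list, went from -0.13 to 1.10 and from -0.62 to 1.05. Arl5c, a small GTPase gene, Pid1, a regulator of insulin signalling, and Mgp, an inhibitor of calcification, went from -0.40, -0.47 and -1.39 to 1.17, 1.16 and 1.65. Tnf and Il10 switched as well, from -1.58 and -1.18 to 0.35 and 0.84; Tnf was at 83.5 and 78.4 CPM in WT and 240.5 and 242 CPM in muMT under isotype IgG. Across the NF-kB list the difference between antibodies was called for 30 of 34 members, 27 of them toward WT.

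Interferon-gamma response genes were mostly higher in WT under both antibodies, and type I genes less uniformly so under isotype IgG. Under isotype IgG 22 of 34 interferon-gamma genes were already higher in WT and 2 lower (median 0.35), and the difference between antibodies was called for 26, with 18 toward WT and 8 away from it. Cxcl9 was higher in WT by more under isotype IgG (1.32) than under anti-CTLA-4 (0.95, difference -0.36 ± 0.06, adjusted p = 2.24e-05), whereas Nos2 went from 0.99 to 1.96 (adjusted p = 2.06e-11). Of 40 type I genes 21 were higher and 8 lower in WT under isotype IgG (median 0.20), and the difference between antibodies was called toward WT for 19 and away from it for 2. The antiviral genes Rsad2, Ifit1, Oasl1 and Mx1 were lower in WT under isotype IgG and higher under anti-CTLA-4, going from -0.51, -0.83, -0.84 and -0.42 to 0.70, 0.64, 0.18 and 0.31.

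The medians of histone and replication genes changed sign with the antibody. The histone median was 0.47 under isotype IgG and -0.84 under anti-CTLA-4, and the difference between antibodies was called for all 42 tested histone genes, each toward lower values in WT. For replication genes the medians were 0.23 and -0.66, with the difference called for 35 of 42, all negative. Mcm7 was at 48.8 and 49.1 CPM in WT and 37.4 and 35.7 CPM in muMT under isotype IgG (0.42 against -0.83). Cholesterol genes had a median of -0.01 under isotype IgG and a called difference in 21 of 23, all negative, and oxidative phosphorylation genes -0.05 and 37 of 40. Ribosomal protein genes were lower in WT under isotype IgG too (34 of 41, median -0.23), with 1 higher, and the difference between antibodies was called for 39 of 41, all negative.

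Among the other cell types, mast cell genes had a median of -0.74 under isotype IgG, with Mcpt2 at 5.09 and 4.63 CPM in WT and 13.5 and 13.9 CPM in muMT, the reverse of anti-CTLA-4 (difference 3.75 ± 0.21, adjusted p = 5.41e-15). Endothelial genes were higher in WT under both antibodies, with a median of 0.48 under isotype IgG, and 17 of 22 had a larger gap under anti-CTLA-4. Slco1a4 was at 13.5 and 13.1 CPM in WT and 10.4 and 9.03 CPM in muMT with isotype IgG (0.45). Fibroblast and mural genes switched from a median of -0.64 to 0.49. The part of these cell types in the other differences was not tested.

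Some genes kept a host difference of the same direction under both antibodies. Ncapg2, which encodes a condensin subunit and lies near Ighm on its chromosome, was at 168 and 167 CPM in WT and 47.3 and 46.6 CPM in muMT under anti-CTLA-4, and at 133 and 141 against 41.0 and 35.5 CPM under isotype IgG. The log2 fold changes were 1.84 ± 0.06 and 1.84, and their difference of -0.01 ± 0.08 did not pass the test (adjusted p = 0.971). Among the 31 tested genes that neighbour Ighm in the RefSeq order (20 before and 11 after it), 11 were higher and 8 lower in WT under anti-CTLA-4, with a median of 0.16. An absolute log2 of 1 or more was found in 4 of them, of which Vipr2 did not pass the test (1.52 ± 0.82, adjusted p = 0.118). Both the 11 and the 4 include the Igh row (1.04), which is the heavy chain locus itself rather than a separate neighbour. H4c17, a histone gene, had 0 and 3 reads in WT and 733 and 694 in muMT, a ratio of 416 with a counting interval of 142 to 2020. Under isotype IgG it had 2 and 3 reads against 608 and 581. It was all but silent in every WT library. Nnt, the mitochondrial transhydrogenase gene, was higher in WT by 0.79 ± 0.07 under anti-CTLA-4 and by 1.42 under isotype IgG, and the difference of -0.63 ± 0.10 passed the test. Whether such genes differ through the muMT mutation or through linked or other strain background cannot be told apart here.

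The Igk row, the kappa light chain locus, ran against the strain label. It was at 15.1 and 15.1 CPM in WT and 232 and 236 CPM in muMT, so the mice without B cells had the higher value (-3.95 ± 0.06, adjusted p = 4.34e-30). The order was the same under isotype IgG, at 214 and 221 against 726 and 689 CPM. The Igh row was higher in WT (1.04 ± 0.19). The files do not show which reads of these long loci were counted, and Igkc, the kappa constant gene, had 0 reads in the 4 libraries.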

How the data were processed

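RNA sequencing libraries (TruSeq Stranded Total RNA kit) of sorted phagocytes, 2 for each of 4 groups, were deposited by the authors as whole-number read counts per gene, raw and not normalized, per the file headers and column layout of STAR's gene counting. Cutadapt 5.0, STAR 2.7 and DESeq2 1.42.1 on mm39 were used, per the submitters' processing notes, and the annotation is not given in the sources used here. The reverse-strand counts were taken, which hold uniquely mapped reads only. Reads in no gene, multimapping or ambiguous stayed out of library sizes. PCR reads carry no molecular identifiers, so intervals and floors cover counting error only.

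Of 50763 listed genes, 30432 had a read and 16608 passed filterByExpr. After TMM scaling, a model was fitted in edgeR 4.0.16 (R 4.3.3, limma 3.58.1; robust quasi-likelihood, group means over all 8 libraries, 4 residual degrees of freedom), and p-values were adjusted over all tested genes by Benjamini and Hochberg. CPM are on TMM-scaled library sizes. The contrasts were WT minus muMT under anti-CTLA-4, the same under isotype IgG, and their difference. The common biological coefficient of variation was 4.11%. The script was tested on simulated data.

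The comparison and the gene lists were chosen with earlier results of these data known. Named genes are in each direction the 12 of smallest p (at least 2-fold, 5 CPM, no overlap), the 8 with the largest fold over 1 CPM, up to 4 called members of each list by p, the 6 in each direction with the opposite sign under isotype IgG, and a fixed set; predicted and clone names were left out, and some named genes are not reported here. Other list members are given as examples chosen after their values were seen. Alternatives were DESeq2 1.42.0, other scalings, filters, strand settings, dispersion and fold thresholds, blocks and left-out libraries.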

Additional observations from a re-analysis of the deposited data

Results flagged for a closer look

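For the genes named here, the WT minus muMT difference under anti-CTLA-4 differed from that under isotype IgG by the test of the difference (adjusted p under 0.05 in edgeR, over all tested genes, of which 37.3% passed). Each value is the log2 fold change under anti-CTLA-4 minus that under isotype IgG, with n = 2 libraries a group. No explanation was tested for any of them.

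A positive value, a shift toward WT under the blockade, was found first in genes of other cell types. Mast cell genes had 3.85 for Mcpt4, 3.75 for Mcpt2, 3.65 for Mcpt1 and 1.72 for Kit. Endothelial genes had 2.48 for Tek, 2.48 for Slco1a4, 2.18 for Ptprb, 1.05 for Vwf and 0.31 for Ly6a. Mural and matrix genes had 3.03 for Mgp, 1.35 for Col4a1 and 1.18 for Col4a2, and genes of the oligodendrocyte lineage 2.60 for Mal, 1.26 for Enpp2 and 0.87 for Mbp. Genes of the lymphocyte lists had 1.83 for Ebf1, 1.43 for Ccl5, 1.01 for Cd28, 0.98 for Il7r, 0.91 for Cd4, 0.84 for Il2rb, 0.67 for Cst7 and 0.66 for Ctla4. Of these, Ebf1 and Cd4 are also genes of other cell types, as given above. Microglial and monocyte genes had 0.56 for Cx3cr1, 0.56 for Tmem119, 0.51 for Ly6i, 0.41 for Plac8 and 0.34 for Sall1.

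Among genes of activated macrophages the positive values were 2.02 for Il10, 1.92 for Tnf, 1.81 for Tnfsf9, 1.66 for Clec4d, 1.63 for Acod1, 1.22 for Nfkbiz, 1.07 for Ptgs2, 0.97 for Nos2, 0.65 for Cd40, 0.42 for Cd274, 0.30 for Il1b and 0.18 for Ass1. Interferon and class I genes had 0.71 for Ifi205, 0.66 for Gbp4, 0.57 for H2-Q4, 0.50 for Parp14, 0.47 for Gbp5 and 0.24 for Slfn5. Complement, lipid and scavenger genes had 1.08 for C4b, 0.85 for Itgam, 0.83 for Apoe and 0.71 for Stab1. The remaining positive values were 2.58 for Btnl6, 2.16 for She, 1.63 for Jag1, 1.63 for Pid1, 1.57 for Arl5c, 1.35 for Dst, 1.09 for Dusp2, 1.06 for Rapgef2, 0.98 for Cpd, 0.95 for Nfat5, 0.74 for Neat1 and 0.63 for Malat1.

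A negative value, a shift toward muMT under the blockade, was found in the alternative activation genes and their neighbours in rank, with -4.82 for Ccl17, -4.79 for Chil3, -4.78 for Cd163, -4.75 for Ccl24, -3.79 for Mgl2, -2.62 for Pdcd1lg2, -1.80 for Mrc1, -1.64 for Arg1, -1.64 for Fn1 and -1.64 for Clec10a. Genes named by rank had -6.57 for Scn3a, -6.39 for Plet1, -5.88 for Rnase2a, -4.68 for Adam28, -4.62 for Ear2, -4.42 for Apol7c, -2.25 for Igk, -2.18 for Dip2c and -2.01 for F7. Prl had a fitted value of -19.99, which depends on groups with 0 reads and is no measure of size. Chemokine, protease and neutrophil genes had -3.65 for Mmp9, -2.85 for Adamdec1, -2.17 for S100a9, -1.56 for Mmp13, -1.31 for Ccl6, -1.0 for Ccl9, -0.95 for Mmp12, -0.73 for Mmp19, -0.37 for Mmp8 and -0.36 for Cxcl9. Klrb1c of NK cells had -1.96.

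Presentation, Fc receptor and uptake genes had -1.83 for H2-DMb2, -1.06 for Fcgrt, -0.98 for Clec7a, -0.92 for Itgax, -0.87 for H2-DMb1, -0.82 for Ifi30, -0.77 for Cd36, -0.76 for Fcgr2b, -0.69 for Calr, -0.69 for H2-DMa, -0.53 for C3, -0.50 for Mfge8, -0.44 for Fcgr3 and -0.38 for Csf1. Cholesterol genes had -1.40 for Fdps, -1.35 for Sqle and -1.13 for Cyp51, and endoplasmic reticulum genes -1.56 for Pdia4, -1.42 for Sdf2l1 and -0.83 for Manf. Replication and histone genes had -1.26 for Mcm2, -1.25 for Mcm7, -1.21 for Mcm4, -1.10 for Mcm3, -1.24 for H4c3, -1.13 for H4c4, -1.10 for H1f4 and -0.91 for H2bc8. Energy and ribosome genes had -0.74 for Atp5f1b, -0.74 for Atp5po, -0.61 for Atp5f1a, -0.60 for Ndufa4, -0.68 for Rpsa, -0.56 for Rps18, -0.50 for Rpl18 and -0.38 for Rps14, and Srm, for spermidine synthase, had -1.06.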

How the results depend on the processing

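The main fit called 9312 genes under anti-CTLA-4. Separate fits called 9109 with a replicate block, 10060 with only the 4 anti-CTLA-4 libraries and 10020 with both. DESeq2 size factors gave 9265 and DESeq2's test 7979. The replicate numbers do not pair the libraries: same-numbered libraries of the compared groups deviated from their group means with a correlation of 0.0221. With the replicate block the isotype count was 6259 and that of the difference 5929. Those isotype libraries had a correlation of -0.233, and the crossed pairing, chosen after seeing the data, called 6784. Leaving out 1 library gave 7722 to 9747 genes under anti-CTLA-4, 4859 to 6222 under isotype IgG and 5047 to 6278 for the difference. A minimum fold of 1.5 in glmTreat left 2111 genes under anti-CTLA-4 (1350 higher, 761 lower), so 64% rather than 48.9% of calls were higher in WT. It left 632 under isotype IgG and 1105 for the difference. Upper-quartile scaling raised the positive share of the difference from 46.8% to 58.3%. List medians changed sign in 5 cases: the Fc receptor list to -0.04 with unstranded counts, the nuclear non-coding RNA list to -0.07 with unstranded counts, -0.09 without WT anti-CTLA-4 replicate 1 and -0.01 without muMT anti-CTLA-4 replicate 1, and the neuronal list (8 genes tested, median -0.30) to 0.31 without WT anti-CTLA-4 replicate 2. Leaving out 1 library gave the non-coding list -0.09 to 0.05 and the neuronal list -0.41 to 0.31. Among 3014 values of named genes under alternatives, 2966 kept direction and side of the threshold, 43 lost their call (28 genes), 5 gained one and 0 changed sign. With unstranded counts Fcgr1 (0.06), H2-Ab1 (0.03) and Ptprc (0.03) lost their calls and Fcgr4 (-0.17) gained one. The causes were not tested. With 2 libraries a group, p-values rest on 4 residual degrees of freedom, and genes at a few reads per library cannot show moderate differences.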

Other observations

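A few transcripts of endocrine and epithelial cells were read in some libraries, and apart from Prl, which the naming rule gave, they were chosen after their values were seen. Prl, for prolactin, had 0 reads in both WT anti-CTLA-4 libraries and 64 and 71 in the muMT ones, at least 39.3-fold higher in muMT with a floor of 3 reads over the group. Gh, for growth hormone, had 0 reads in WT against 99 in muMT, at least 28.8-fold higher in muMT. Under isotype IgG the order was the opposite, with 270 and 229 reads of Prl in WT and 0 and 0 in muMT, and 367 and 374 reads of Gh in WT and 1 and 0 in muMT. Prl and Gh thus followed neither the host nor the antibody, and other transcripts looked at did not share their pattern. Krt8 had 6 and 6 reads in WT and 135 and 117 in muMT under anti-CTLA-4. Under isotype IgG it had 87 and 108 reads in WT and 357 and 349 in muMT. Ttr went the other way under anti-CTLA-4, with 646 and 693 reads in WT and 210 and 189 in muMT. Pomc, another pituitary hormone gene, was read in every library.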
